A study of Mus musculus with 2 samples.

Results

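The 41 genes described here are immediate early and acute stress genes, the transcripts that many cells make within minutes of a growth factor, stress or injury signal. They were chosen by name, with earlier results of these data known. They comprise the EGR, FOS, JUN, KLF, NR4A, GADD45, DUSP and other serum- or stress-induced genes. All 41 of them were found among the 18194 genes with a probe set of their own on the array, with 2, Cyr61 and Ctgf, listed under their later symbols Ccn1 and Ccn2. They were read by 77 of the 34958 probe sets that carry a single gene symbol, and every one of these probe sets was used. The liver RNA came from ICR mice, an outbred stock, that ate CRF-1, the basal diet, either with diosgenin, a steroidal sapogenin of plants, at 500 ppm or alone, for 4 weeks from 9 weeks of age. Each diet was measured on 1 array with a pool of RNA from 3 mice that were 13 weeks old, so there was no replicate array, and every difference below is one between 2 pools and has no test. The sources used here give neither the hour of collection, nor any fast before it, nor whether each diet was a single cage of 3 mice.

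Immediate early genes are switched on without new protein synthesis, because their promoters are bound in resting cells by factors such as serum response factor and CREB that are activated by kinases. Many encode transcription factors that then drive a later set of genes. Others encode phosphatases and RNA-binding proteins that end the signal, and their messenger RNAs are short-lived. In liver they are known for a sharp rise after partial hepatectomy, feeding and handling of the tissue.

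The values are array intensities, called signals here, on a linear scale that the authors had set to a common level, with a 2% trimmed mean of 96.9 on the diosgenin array and 96.9 on the control array. The lowest 40% of signals, those below 10.7, were raised to that floor, and a log2 ratio of diosgenin over control was computed from the result. Each gene's brightest probe set stood for it, and it was counted where the mean of its 2 signals reached a filter of 28.4, the 60th percentile of probe set means, which 31 of the 41 members did, as did 9732 genes in all. Probe sets of the same gene had log2 ratios with a standard deviation of 0.28 across 4079 genes, a spread that contains none between mice. Control probe sets gave a ratio of the 3′ over the 5′ end of 2.03 on the diosgenin array and 1.86 on the control array for Actb, and of 0.799 on the diosgenin array and 0.822 on the control array for Gapdh. All 6 hepatocyte markers with a probe set of their own were above the filter, among them albumin with 8429 on the diosgenin array and 9517 on the control array.

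A few of these genes were much lower on the diosgenin array and most were close to their control values. Egr1, Csrnp1, Fos, Gadd45a and Myc were at least 2-fold lower, which is 5 of the 31 members above the filter, or 16.1%, where 0.853% of all 9732 genes were. All of them but Egr1 passed the filter through the control array alone and so had to be lower. With Dusp1 added, the number at least 1.5-fold lower was 6, or 19.4%, where 3.61% of all genes were. No member was at least 1.5-fold higher, against 2.84% of all genes. The other 25 of the 31 members lay within 1.5-fold, where 93.6% of all genes did. Of the 31, 16 had log2 ratios smaller in size than the standard deviation between probe sets of a gene. The share of all genes inside that standard deviation was not counted. The median of the 31 was −0.042 and that of all genes −0.0053, while the mean was −0.27 for the 31 and −0.010 for all genes.

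These counts rest in part on how genes enter the set. Fos, Gadd45a, Myc and Csrnp1 had control signals above the filter and diosgenin signals below it, and genes that enter through the control array alone had to be lower. Where the filter was required on both arrays, 27 members were left, with Egr1 alone at least 2-fold lower (3.70%, against 0.480% of 9377 genes) and Egr1 and Dusp1 at least 1.5-fold lower (7.41%, against 2.74%). Of these 27, 13 were lower and 14 higher, and their median was 0.083. With no filter at all, 5 of the 41 members were at least 2-fold lower (12.2%, against 1.20% of 18194 genes) and 7 at least 1.5-fold lower (17.1%, against 4.75%). None of the 41 was at least 1.5-fold higher without the filter, where 4.13% of all genes were.

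**Figure D1:**
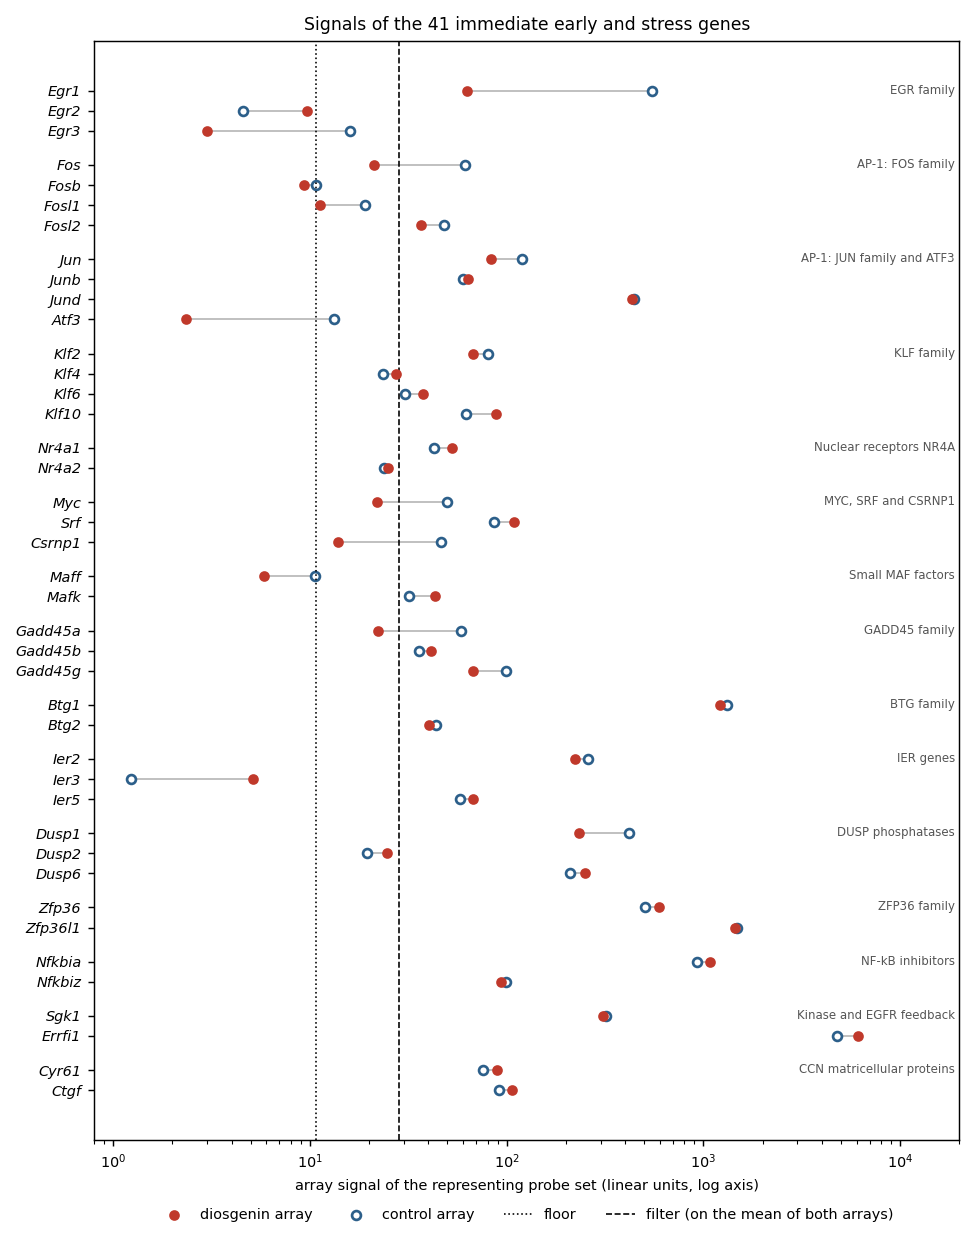
Signals of all 41 genes, grouped by family, with filled points for the diosgenin array and open points for the control array on a log axis in linear array units. The dotted line is the floor of 10.7 and the dashed line the filter of 28.4, which applies to the mean of both arrays. Egr1 has the widest gap among genes with both signals above the filter, 63.1 on the diosgenin array against 545 on the control array.

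The spread of ratios between the arrays depended on signal, so the genes were split by mean signal into 4 bins of equal size and each member was set among those of its bin. In the dimmest bin, 2433 genes with mean signals of 28.4 to 68.0, the central 95% of log2 ratios reached from −0.95 to 0.83, and Fos, Myc, Csrnp1 and Gadd45a lay below that range. These are the 4 members that passed the filter through the control array alone and so had to be lower, and nothing is read from their place in the bin. The other 8 members of the bin lay inside the range. In the third bin, with mean signals of 151 to 377, the central 95% reached from −0.52 to 0.47, and 2 of 5 members, Egr1 and Dusp1, lay below it. The 8 members of the second bin and the 6 of the brightest all lay inside their ranges. No member lay above its range in any bin.

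**Figure D2:**
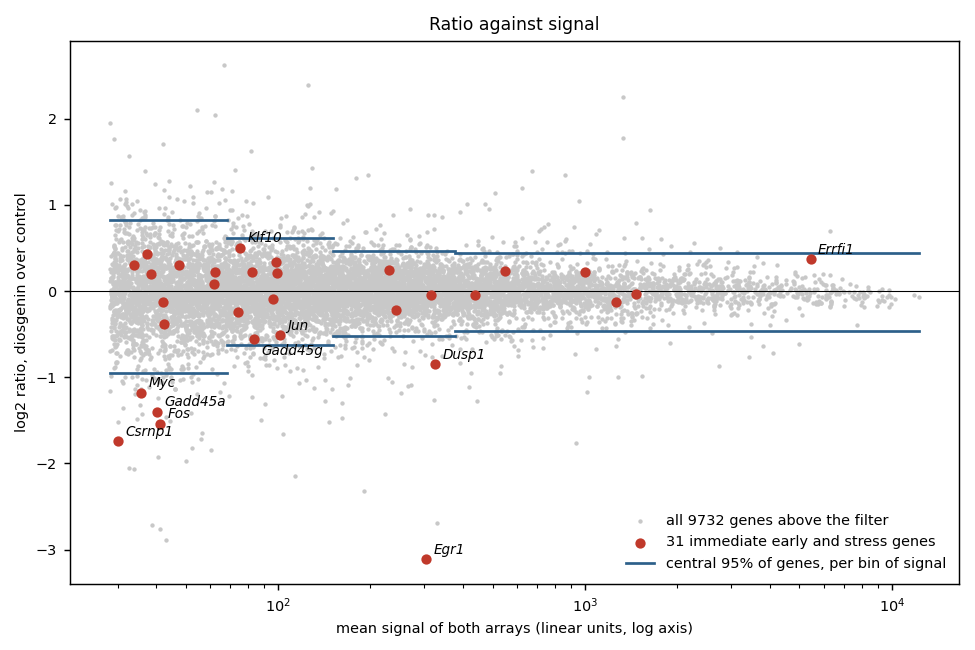
Log2 ratio of diosgenin over control against the mean signal of both arrays, on a log axis, for all 9732 genes above the filter in grey and the 31 immediate early and stress genes in red. Blue lines bound the central 95% of genes in each bin of signal, and 6 red points lie below their lines and 0 above. Of the 6, Fos, Myc, Csrnp1 and Gadd45a passed the filter through the control array alone and so had to be lower, while Egr1 and Dusp1 passed it on both arrays.

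The promoters of members that were lower and of members that were not are shown because genes of this class are known to be switched on through short promoter elements. Of the 41 members 33 matched the RefSeq promoter table of the mouse build GRCm38.p6, which holds 250 bases before and 50 after each start. Printed here are the 250 bases before the start, 5′ to 3′ on the gene's own strand, of Fos, Dusp1 and Gadd45a, which were lower on the diosgenin array, and of Srf and Zfp36, which were not. Capitals mark every match, on either strand, to the cyclic AMP response element TGACGTCA, its shorter core TGACG, which also lies inside the full element, the CArG box bound by serum response factor, the AP-1 site TGANTCA and the EGR site GCGNGGGCG. The windows are chr12:85473640-85473889 on the plus strand for Fos, chr17:26508473-26508722 on the minus strand for Dusp1, chr6:67037408-67037657 on the minus strand for Gadd45a, chr17:46556163-46556412 on the minus strand for Srf and chr7:28379229-28379478 on the minus strand for Zfp36.
Fos: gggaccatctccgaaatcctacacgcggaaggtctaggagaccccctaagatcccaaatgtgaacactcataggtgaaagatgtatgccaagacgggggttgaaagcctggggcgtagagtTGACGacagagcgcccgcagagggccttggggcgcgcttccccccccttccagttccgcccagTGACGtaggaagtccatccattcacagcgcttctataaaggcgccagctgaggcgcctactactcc
Dusp1: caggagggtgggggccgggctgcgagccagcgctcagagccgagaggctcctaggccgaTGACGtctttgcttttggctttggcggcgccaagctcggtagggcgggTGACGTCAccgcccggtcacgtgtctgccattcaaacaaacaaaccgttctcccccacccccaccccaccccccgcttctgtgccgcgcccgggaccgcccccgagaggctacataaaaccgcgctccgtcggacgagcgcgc
Gadd45a: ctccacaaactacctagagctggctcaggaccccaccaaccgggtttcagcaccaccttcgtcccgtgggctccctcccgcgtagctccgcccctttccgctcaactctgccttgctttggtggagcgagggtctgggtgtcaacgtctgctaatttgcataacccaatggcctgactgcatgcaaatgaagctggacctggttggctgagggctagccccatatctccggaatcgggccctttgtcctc
Srf: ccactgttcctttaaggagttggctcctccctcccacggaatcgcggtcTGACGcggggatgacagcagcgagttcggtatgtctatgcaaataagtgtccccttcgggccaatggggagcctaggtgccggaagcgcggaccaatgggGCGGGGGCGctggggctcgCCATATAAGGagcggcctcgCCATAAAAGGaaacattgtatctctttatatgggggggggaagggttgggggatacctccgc
Zfp36: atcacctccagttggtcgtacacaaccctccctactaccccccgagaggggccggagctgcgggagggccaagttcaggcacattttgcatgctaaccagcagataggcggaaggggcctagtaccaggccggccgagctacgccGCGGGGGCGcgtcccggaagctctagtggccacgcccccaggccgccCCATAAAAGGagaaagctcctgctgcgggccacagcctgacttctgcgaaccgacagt

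Counted from the start, with the base before it as −1, the Fos window holds cores from −129 to −125 and from −66 to −62, and that of Dusp1 holds the full element from −143 to −136 and a further core from −191 to −187. That of Gadd45a holds none of the 5 motifs. The Srf window has a core from −201 to −197, an EGR site from −101 to −93 and CArG boxes from −82 to −73 and from −62 to −53. That of Zfp36 has an EGR site from −105 to −97 and a CArG box from −58 to −49. These 5 windows were picked for display, and no difference between lower and other members is read from them. Over the windows of 300 bases, the core was found in 20 of the 33 matched members (60.6%). It was in 36.2% of the 7973 matched genes above the signal filter and 23.0% of all 27025 genes searched, those outside chromosome 18. The EGR site was in 13 members (39.4%), against 12.4% of genes above the filter and 6.27% of all genes. The CArG box was in Egr2, Srf and Zfp36, 9.09% of members, against 1.49% of genes above the filter and 1.81% of all genes. The full element was in 12.1% of members, against 3.60% of genes above the filter and 2.03% of all genes. The AP-1 site was in 6.06% of members, against 6.02% of genes above the filter and 8.97% of all genes. The EGR site and both cyclic AMP elements contain CG, and the median GC content was 61.2% over the windows of members, 60.7% over those of genes above the filter and 52.7% over all windows. Of the 4 members at least 1.5-fold lower that had a window, 3 held the core, 1 the full element, 1 the AP-1 site and 0 the CArG box or EGR site. These were Fos, Csrnp1, Gadd45a and Dusp1, of which all but Dusp1 passed the filter through the control array alone. The AP-1 site was that of Csrnp1, which had several windows. Egr1 and Myc, also at least 1.5-fold lower, had no window, and bases beyond the windows were not searched. Nothing is therefore read from the motifs that these 4 hold or lack. Members with several starts count once where any of their windows holds the motif, and a match is a string of letters, not a bound site.

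The EGR genes encode zinc finger transcription factors that bind GC-rich sites. Egr1, known in liver for its induction after injury, had a signal of 63.1 on the diosgenin array and 545 on the control array, 8.63-fold lower, and the log2 ratio of −3.11 was the lowest of all 9732 genes. Egr1 was read by a single probe set, so no second measurement of it was at hand within the arrays. Both of its signals were above the filter, and its log2 ratio lay between −3.11 and −3.10 under every alternative tried. Only centring and quantile normalization could change it, because its 1 probe set had both signals above every floor tried. That range therefore says nothing of how the ratio would vary between pools. Egr2 was under the floor on both arrays, with 9.71 on the diosgenin array and 4.57 on the control array. Egr3 had 2.99 on the diosgenin array, under the floor, and 16.0 on the control array, at least 1.49-fold lower. Liver RNA of a whole tissue was measured, so fewer cells of a type and less RNA per cell cannot be told apart for Egr1 or any gene below.

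FOS proteins pair with JUN proteins to form the transcription factor AP-1. The signal of Fos was 21.2 on the diosgenin array and 61.6 on the control array, 2.91-fold lower, with a log2 ratio of −1.54. Its diosgenin signal was below the filter, so Fos was counted through its control signal alone. With the floor at the 60th percentile of signals, above its diosgenin signal, its log2 ratio was −1.11, a bound set by that floor. Fosl2, a FOS relative without a transactivation domain, had 36.7 on the diosgenin array and 48.0 on the control array, 1.31-fold lower. Its second probe set, under the filter, had 29.1 on the diosgenin array and 26.5 on the control array, the opposite sign. Fosl1 was under the filter with 11.2 on the diosgenin array and 19.1 on the control array, a 1.70-fold lower signal close to the floor. Fosb had 9.37 on the diosgenin array, under the floor, and 10.8 on the control array, at the floor.

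Among the partners of FOS, Jun was lower and its relatives Junb and Jund were close to their control values. Jun was read by 2 probe sets above the filter, with 83.5 on the diosgenin array and 119 on the control array for the representing one, 1.43-fold lower. The other gave 51.9 on the diosgenin array and 99.0 on the control array, 1.91-fold lower, so both had the same sign and differed in size. Junb, a JUN protein with weaker transactivation, had 63.5 on the diosgenin array and 59.9 on the control array, 1.06-fold higher. Jund, the JUN protein that resting cells keep, had 433 on the diosgenin array and 446 on the control array, 1.03-fold lower. Both differences were far inside the spread between probe sets of a gene. Atf3, a stress-induced factor that pairs with JUN proteins, had 2.35 on the diosgenin array, under the floor, and 13.2 on the control array, at least 1.23-fold lower.

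Csrnp1, a nuclear protein first described as induced by axin, had a signal of 13.9 on the diosgenin array and 46.3 on the control array, 3.34-fold lower. Its second probe set was under the filter, with 12.4 on the diosgenin array and 1.40 on the control array, so its order was the opposite, at signals near or under the floor. The median over both was −0.77. With the floor at the 60th percentile of signals, above its diosgenin signal, the log2 ratio of Csrnp1 was −0.70, a bound set by that floor. Myc, the growth-promoting transcription factor, had 21.9 on the diosgenin array and 49.6 on the control array, 2.26-fold lower, by a single probe set that covers alternative transcripts. With the floor at the 60th percentile, above its diosgenin signal, its log2 ratio was −0.80, a bound that no longer reached 2-fold. Srf, the serum response factor itself, went the other way, with 110 on the diosgenin array and 86.7 on the control array, 1.26-fold higher. The second Srf probe set had 34.3 on the diosgenin array and 32.6 on the control array, also slightly higher on the diosgenin array.

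KLF proteins are zinc finger factors, several of which are induced by growth or flow signals. Klf10, known as a target of TGF-β and of the clock, had 88.4 on the diosgenin array and 62.3 on the control array. Its log2 ratio of 0.50, a 1.42-fold higher signal, was the highest of the 31 members, and 114 of 2433 genes in its signal bin had a higher ratio. Klf6 had 37.5 on the diosgenin array and 30.5 on the control array, 1.23-fold higher, and its other 4 probe sets were under the filter with a median over all 5 of 0. Klf4 was under the filter, with 27.4 on the diosgenin array and 23.5 on the control array. Klf2, which endothelial cells make under flow, had 67.6 on the diosgenin array and 80.1 on the control array, 1.18-fold lower. Of 8 endothelial markers, all above the filter, 7 were lower on the diosgenin array, where 51.0% of all genes were. The summed signal of the 8 was 1599 on the diosgenin array and 2019 on the control array. Of the 7, Stab2, Pecam1, Kdr and Eng were inside the spread between probe sets of a gene, from −0.27 to −0.03. The median over the Eng probe sets was 0.05. Of the 8 only Clec4g, a lectin of liver sinusoids, was past 1.5-fold, at −0.68 on the log2 scale, and the median over its 2 probe sets was −0.11. The part of endothelial RNA in the Klf2 value was not tested.

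NR4A genes encode nuclear receptors that are active without a ligand and are induced in liver by fasting hormones. Nr4a1 had 52.6 on the diosgenin array and 42.7 on the control array, 1.23-fold higher, and 479 of 2433 genes of its bin had a higher ratio. Nr4a2 was under the filter by all 6 of its probe sets, and the brightest had 25.1 on the diosgenin array and 23.7 on the control array. Of the small MAF factors, which bind DNA with NRF2 or as repressors, Mafk had 43.0 on the diosgenin array and 32.0 on the control array, 1.34-fold higher. Maff was under the floor on both arrays. By the probe set that represents each gene, none of these differed by 1.5-fold. One dim Nr4a2 probe set had 8.80 on the diosgenin array, under the floor, and 18.0 on the control array, at least 1.67-fold lower.

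GADD45 proteins are small stress sensors that bind kinases and the replication clamp. Gadd45a, which p53 induces after DNA damage, had 22.2 on the diosgenin array and 58.7 on the control array, 2.64-fold lower. It too was counted through its control signal alone. With the floor at the 60th percentile, above its diosgenin signal, its log2 ratio was −1.05, a bound set by that floor. Gadd45g had 67.6 on the diosgenin array and 99.3 on the control array, 1.47-fold lower by a probe set that covers alternative transcripts. Gadd45b had 41.1 on the diosgenin array and 35.8 on the control array, 1.15-fold higher, and its second probe set above the filter had 28.3 on the diosgenin array and 30.8 on the control array, the opposite sign. Of the 3 family members 2 were lower, where 51.0% of all genes were, and the third had no settled sign. With the filter required on both arrays, which leaves out Gadd45a, the family median was −0.18.

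BTG proteins slow cell division and recruit the machinery that removes poly(A) tails. Btg1 had 1208 on the diosgenin array and 1315 on the control array, 1.09-fold lower, and its second probe set above the filter had 749.5 on the diosgenin array and 831 on the control array. Btg2, another p53 target, had 40.3 on the diosgenin array and 44.0 on the control array, 1.09-fold lower. The median over both Btg2 probe sets was 0.23, so its sign was not settled. The IER genes are named only for their fast induction. Ier2 had 224 on the diosgenin array and 260.3 on the control array, 1.16-fold lower, and Ier5 had 67.4 on the diosgenin array and 57.6 on the control array, 1.17-fold higher. Ier3 was under the floor on both arrays. All BTG and IER values above the filter were inside the spread between probe sets.

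**Figure D3:**
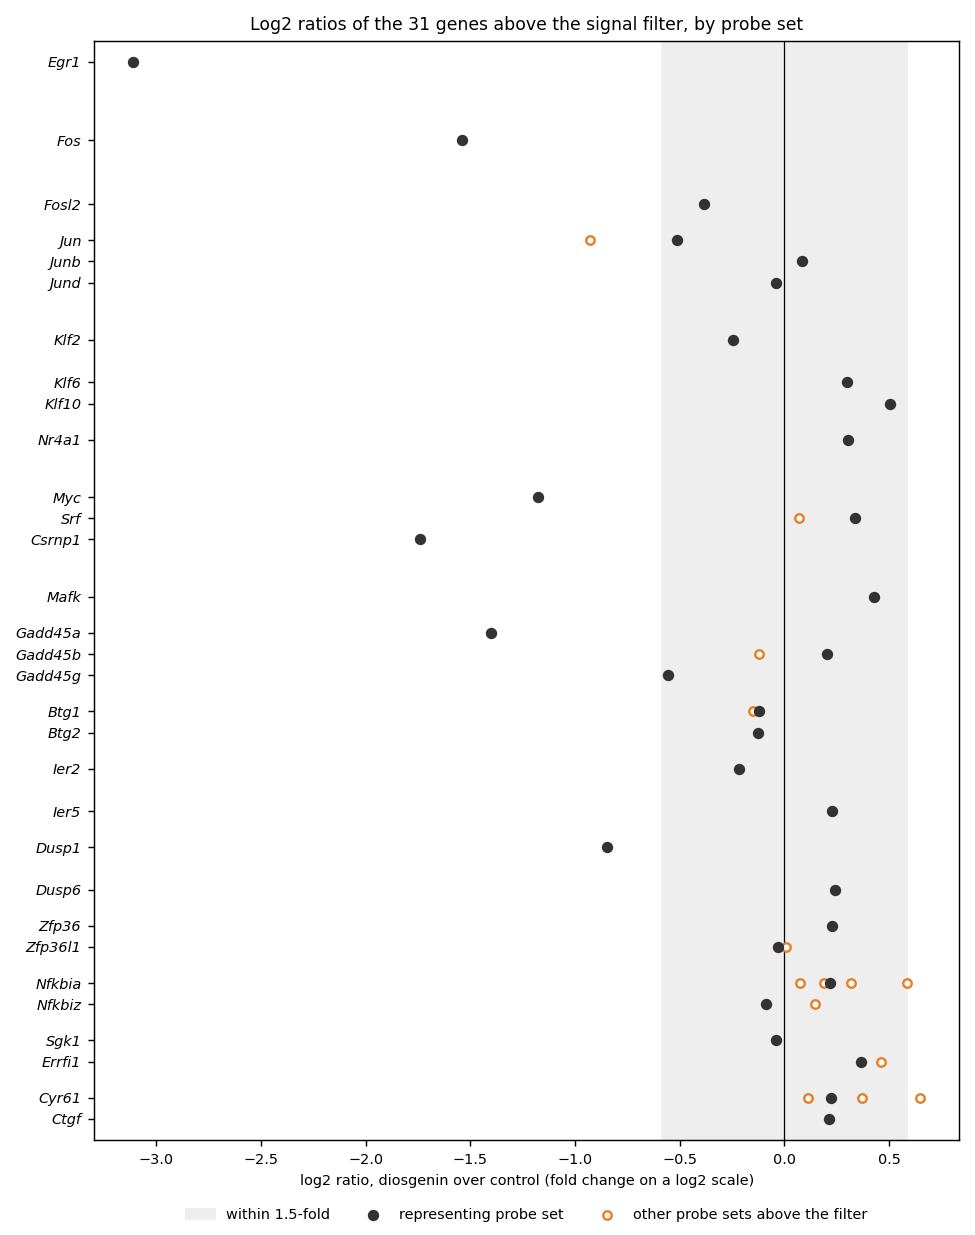
Log2 ratios of diosgenin over control for the 31 genes above the filter, with filled points for the representing probe set and open points for the gene's other probe sets above the filter. The shaded band is within 1.5-fold. Fos, Egr1, Myc, Csrnp1, Gadd45a and Dusp1 lie left of the band and are each read by a single probe set above the filter. All but Egr1 and Dusp1 passed the filter through the control array alone.

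Genes that end the signal were mostly close to control values, with Dusp1 apart. Dusp1, a nuclear phosphatase that inactivates p38, JNK and ERK, had 233 on the diosgenin array and 419 on the control array, 1.80-fold lower, with 16 of the 2433 genes in its bin lower still. Its log2 ratio lay between −0.85 and −0.84 under every alternative tried. As for Egr1, only centring and quantile normalization could change it, so that range says nothing of variation between pools. Dusp6, the cytoplasmic phosphatase of ERK, had 249 on the diosgenin array and 211 on the control array, 1.18-fold higher. Dusp2 was under the filter with 24.6 on the diosgenin array and 19.4 on the control array. Errfi1, an inhibitor of the EGF receptor, had 6127 on the diosgenin array and 4752 on the control array, 1.29-fold higher, and its second probe set had 3606 on the diosgenin array and 2618 on the control array. Both Errfi1 probe sets were thus higher on the diosgenin array, and 90 of the 2433 genes of its bin had a higher ratio. Sgk1, a kinase induced by serum and glucocorticoids, had 309.8 on the diosgenin array and 319 on the control array, 1.03-fold lower.

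Zfp36, which binds AU-rich elements and marks short-lived messages for decay, had 594 on the diosgenin array and 508 on the control array, 1.17-fold higher. Its relative Zfp36l1 had 1455 on the diosgenin array and 1487 on the control array, 1.02-fold lower, and a second probe set with 383 on the diosgenin array and 381 on the control array, the opposite sign. Nfkbia, the inhibitor IκBα that NF-κB itself induces, was the member with the most probe sets above the filter, 5, and all were higher on the diosgenin array. The representing one had 1074 on the diosgenin array and 924 on the control array, 1.16-fold higher, and the log2 ratios of the 5 reached from 0.07 to 0.59. Nfkbiz, a nuclear relative of the inhibitors, had 93.1 on the diosgenin array and 99.0 on the control array, 1.06-fold lower, and its second probe set above the filter had the opposite sign. Cyr61 and Ctgf encode matricellular proteins and are known targets of SRF and YAP. Cyr61 had 88.8 on the diosgenin array and 76.2 on the control array, 1.17-fold higher, and its 4 probe sets above the filter were all higher, with log2 ratios from 0.11 to 0.65. Ctgf had 106 on the diosgenin array and 91.6 on the control array, 1.16-fold higher by its only probe set.

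Agreement within a gene could be read for the 9 members with 2 or more probe sets above the filter. In 6 of these, Jun, Srf, Btg1, Nfkbia, Errfi1 and Cyr61, every probe set above the filter had the same sign. Gadd45b, Zfp36l1 and Nfkbiz were the other 3. How often the probe sets of all genes agree in sign was not counted, so the 6 of 9 only describe these probe sets. Over all 45 member probe sets above the filter, 7 were at least 1.5-fold lower (15.6%, against 4.00% of 16259 probe sets) and 2 at least 1.5-fold higher (4.44%, against 3.25%). The 7 were those of the 6 lower genes and the second Jun probe set, and the 2 belonged to Cyr61 and Nfkbia. Of the 7, those of Fos, Myc, Csrnp1 and Gadd45a passed the filter through the control array alone and so had to be lower.

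Other genes of the same response and of the pathways that feed it were described by counts. Of 34 other immediate early genes 24 passed the filter, 15 of them higher and 9 lower, and their median was 0.22 on the log2 scale. Of all 9732 genes 49.0% were higher and 51.0% lower, shares against which the counts of this and the following lists can be read. At least 1.5-fold higher were 4 of the 24, where 2.84% of all genes were, and 0 were at least 1.5-fold lower, where 3.61% of all genes were. The cytokine signalling inhibitor Socs3 had 93.3 on the diosgenin array and 48.6 on the control array, 1.92-fold higher, and the transcription factor Cebpd 97.9 on the diosgenin array and 64.1 on the control array, 1.53-fold higher. The clock genes Per1 and Bhlhe40 were the others. The Socs3 value came from a shared probe set, with a median of 0.81 over its 3 probe sets, and the median over both Cebpd probe sets was 0.31. The median of the members was −0.042 over the 31 above the filter and 0.083 over the 27 that reached it on both arrays, so its sign depended on the 4 that entered through the control array alone.

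Upstream factors were read as well. Of 12 SRF, TCF and CREB factors 10 were above the filter, 6 higher and 4 lower. Crtc1, a CREB coactivator, had 76.9 on the diosgenin array and 45.3 on the control array, 1.70-fold higher, but the median over its 3 probe sets was 0.03. Its relative Crtc2 had 68.5 on the diosgenin array and 42.2 on the control array, 1.62-fold higher by a shared probe set, and the median over its 2 probe sets was 0.49. The SRF coactivators Mrtfa and Mrtfb had opposite signs, 1.44-fold higher and 1.48-fold lower, and the median over the 3 Mrtfb probe sets was 0. Of the 15 growth factor receptor and ERK cascade genes above the filter 8 were lower and 7 higher, with log2 ratios from −0.22 to 0.34. The 10 JNK and p38 cascade genes split into 5 higher and 5 lower, from −0.32 to 0.38. No kinase or receptor gene of these last lists differed by 1.5-fold in messenger RNA, which says nothing of their activity.

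Downstream and parallel lists were mostly close to control values. Only 4 EGR corepressors and targets were above the filter, 2 of them higher and 2 lower. Nab2, a corepressor of EGR proteins and itself an EGR target, had 62.2 on the diosgenin array and 65.2 on the control array, 1.05-fold lower. Of the other 3 genes of that list above the filter, Pdgfa was 1.40-fold lower and Tgfb1 and Nab1 were 1.46-fold and 1.15-fold higher. Among 9 other ERK feedback inhibitors the largest ratio was that of Spred1, 76.8 on the diosgenin array and 39.4 on the control array, with a median of 0.45 over its 8 probe sets. Of 7 p53 targets 5 were lower, where 51.0% of all genes were, with Cdkn1a 1.47-fold and Mdm2 1.82-fold lower. The Mdm2 value came from a shared probe set, while the median over its 3 probe sets was −0.08. The 7 integrated stress response genes were all within 1.5-fold, and Ddit3, induced by ATF4, was 1.33-fold higher. Of 7 NF-κB factors and targets the chemokine Cxcl1 had 282 on the diosgenin array and 111 on the control array, 2.55-fold higher, with a median of 0.73 over its 3 probe sets, and the cytokine Il1b was 1.36-fold lower.

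The remaining lists held no gene past 1.5-fold other than in the glucocorticoid list. Of 8 YAP, TAZ and TEAD genes 4 were higher and 4 lower, with Lats2 1.48-fold higher. Of 6 MYC partners 2 were higher and 4 lower, of 9 other KLF genes 4 were higher and 5 lower, and of 7 other AP-1 and ATF factors 5 were higher and 2 lower. By their representing probe sets all 10 glucocorticoid response genes were higher on the diosgenin array, where 49.0% of all genes were. Their log2 ratios reached from 0.03 to 1.02 with a median of 0.23, and several were inside the spread between probe sets of a gene. The lowest median over all probe sets of a gene in the list was −0.02, so not every sign was settled. That list shares Per1 and Cebpd with the other immediate early genes, and those are its 2 genes at least 1.5-fold higher. Sgk1, Dusp1 and Errfi1, members that glucocorticoids are also known to induce, were at −0.04, −0.85 and 0.37.

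**Figure D4:**
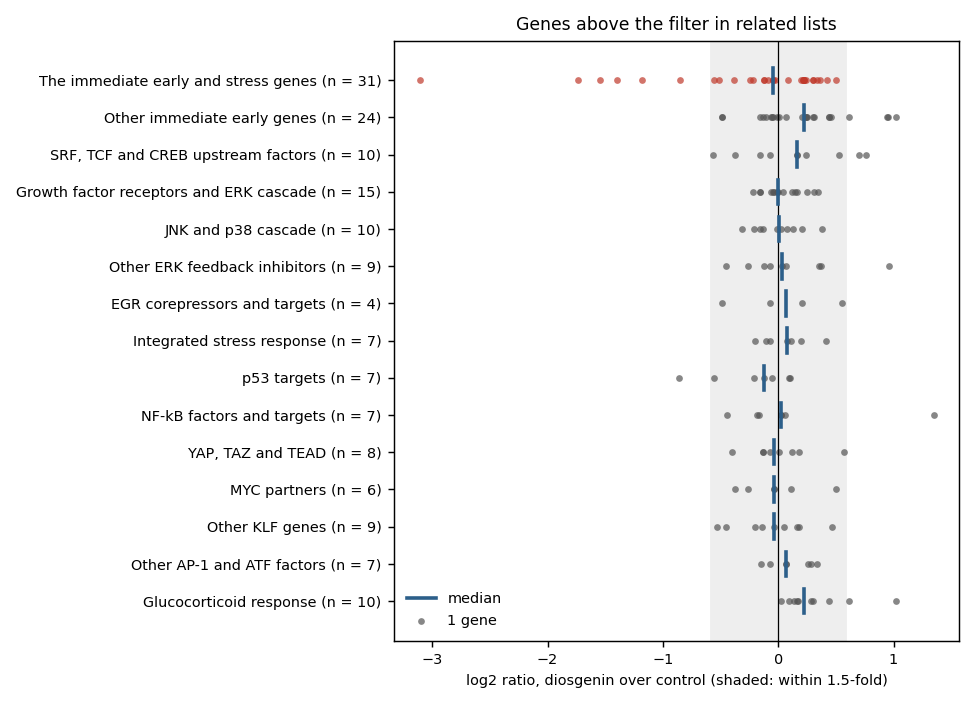
Log2 ratios of diosgenin over control for the genes above the filter in the immediate early and stress gene set (top row, red, n = 31) and in 14 related lists (grey), with blue bars for medians and shading for the range within 1.5-fold. The top row holds the only genes below −1, namely Egr1, Csrnp1, Fos, Gadd45a and Myc, of which all but Egr1 were counted through the control array alone, while its median of −0.042 sits near 0.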

How the data were processed

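Each diet was 1 Affymetrix array of 45101 probe sets, with 5 µg of liver RNA pooled from 3 mice and labelled with biotin, per the labels' protocols. The deposited values are linear array intensities, 1 signal per probe set. They came from GCOS, software for Affymetrix scanners, per the submitters' processing notes, which give no version. How probes were summarised, the target of the scaling and any detection calls are not stated in the sources used here. Equal trimmed means show a common scaling, and the number of arrays limits the precision.

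Gene symbols came from the platform's annotation. Of the probe sets 34958 carried 1 symbol, 932 several and 9211 none, and only the first were used. The 247 genes of the related and marker lists were matched by their own symbol or else by a RefSeq synonym, which gave 220 measured symbols. Log2 ratios of diosgenin over control were computed with Python 3.11.15 and pandas 2.3.3, after the floor and filter described above. With 1 array per diet no test was run. Calls at 1.5-fold and 2-fold describe these arrays. The calculation was tested on simulated data. Probe sets ending in _s_at, _x_at or _a_at can bind several transcripts and are called shared or alternative.

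The members, families and lists were chosen with earlier results of these data known. All members are named. Signals are given for every member above the filter, and below it for EGR, FOS, JUN and NR4A genes and the 5 with the largest signals. In related lists at most the 4 largest ratios are named. The alternatives were other floors and filters, the median of a gene's probe sets, leaving out shared and alternative probe sets, centring and quantile normalization. Requiring the filter on both arrays was added after the data were seen.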

Additional observations from a re-analysis of the deposited data

How the results depend on the processing

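With 1 array per diet, variation among mice or pools could not be measured, and no replicate could be left out. No paired analysis was possible because each diet had 1 array. A value was counted as moved where it changed by more than the standard deviation of 0.28 between probe sets, and a count where it changed by over 1.5 times. The cause of a change was not tested unless named. With the filter on both arrays or at the 75th percentile, members at least 2-fold lower numbered 1 and those at least 1.5-fold lower 2, because fewer genes were counted. With the floor at the 60th percentile 3 were at least 2-fold lower, without Myc at −0.80 and Csrnp1 at −0.70. That floor was above the diosgenin signals of Myc and Csrnp1, so these 2 values are bounds set by it. Without shared and alternative probe sets 1 member, Cyr61, was at least 1.5-fold higher, at 0.65. Member probe sets at least 2-fold lower numbered 3 with the floor at the 60th percentile and 1 with the filter on both arrays or at the 75th percentile. Those at least 1.5-fold lower numbered 3 with the filter on both arrays and 2 with it at the 75th percentile. Under those settings, with the floor at the 60th percentile, and without shared and alternative probe sets, 1 was at least 1.5-fold higher. Shares of all genes with the filter on both arrays are given above. They were not counted for the other settings here, nor for probe sets under any alternative, so nothing about the members is read from these counts.

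Among family medians, that of Myc, Srf and Csrnp1 changed from −1.18 to 0.34 with the filter on both arrays or at the 75th percentile, where only Srf was left. It was −0.70 with the floor at the 60th percentile, a bound set by that floor. With the median of all probe sets it was −0.77, and without shared and alternative probe sets −0.70. The FOS median was −0.39 with the filter on both arrays and −0.58 with no filter, the EGR median −0.57 and the DUSP median 0.24 with no filter, the GADD45 median −0.18 with the filter on both arrays, and the KLF median 0 with the median of all probe sets. Of 257 values of single members under alternatives 249 stayed within that spread. For members with 1 probe set and both signals above every floor, most alternatives could not change the ratio.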
